A study of Schizosaccharomyces pombe with 8 samples.

Results

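The mug genes of fission yeast (Schizosaccharomyces pombe) carry the name "meiotically upregulated gene" and a number. They were taken from the deposited counts as every feature whose name begins with mug and a digit and does not hold the word antisense, which gave 105 of 6973 features, and all 105 were among the 6620 features tested. Total RNA was sequenced from 8 libraries, 2 for each of 4 h90 (homothallic) strains: mot2∆ mamRNA∆ (mamRNA::hygTK, mot2::kanMX), mot2∆ (mot2::natMX), mamRNA∆ (mamRNA::natMX) and wt, which carries neither deletion. Cells had grown for 2 days at 30 °C in EMM minimal medium and were harvested while dividing exponentially (optical density 0.6). RNA was isolated with hot acid phenol, ribosomal RNA was removed, and paired reads of 75 nt were obtained. Nothing in the labels says that the 2 libraries of a genotype came from separate cultures, so p-values measure the spread between these libraries, which may be technical.

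In mitotic cells the YTH-domain protein Mmi1 binds meiotic transcripts that hold UNAAAC motifs and hands them to the nuclear exosome for degradation. The meiotic RNA-binding protein Mei2 counteracts Mmi1, and the ubiquitin ligase Mot2, a Ccr4-Not subunit, keeps Mei2 low. The long non-coding RNA mamRNA was described as a scaffold that holds Mmi1 and Mei2 together, and the question put to these libraries is how meiotic transcripts respond when Mot2, mamRNA or both are missing. The mug genes were named for transcripts that rise during meiosis, and their products are mixed: forespore membrane and spore wall factors, membrane adaptors, RNA-binding proteins, metabolic enzymes and many proteins of no known function.

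Library totals lay between 22381332 and 34667534 counts, and the mug genes held between 0.446% and 0.597% of them. Levels are given as counts per 1000000 (CPM) on TMM-scaled library sizes. The targeted gene mot2 had 2.72 and 2.77 CPM in mot2∆ mamRNA∆ and 4.11 and 4.26 CPM in mot2∆, against 18.9 and 18.8 CPM in mamRNA∆ and 22.3 and 23.4 CPM in wt, so it was low in both strains labelled as lacking it. Its remaining level was lower in mot2∆ mamRNA∆ than in mot2∆ (log2 change -0.61; edgeR adjusted p = 0.00219). Levels of mamRNA itself were not analysed here, and the mamRNA∆ labels are therefore unchecked. Differences were tested in 1 edgeR quasi-likelihood fit of all 8 libraries. A gene "passed" at a Benjamini-Hochberg adjusted p under 0.05 over the 6620 features and was "called" when its change also exceeded 2-fold, that is 1 on the log2 scale. The spread between libraries was small for most members: the median ratio of the higher to the lower library was 1.05 in mot2∆ mamRNA∆, 1.06 in mot2∆, 1.05 in mamRNA∆ and 1.12 in wt.

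The counts did not keep the strands of many loci apart. Over 564 pairs of a gene and a feature named as its antisense, from 550 genes, the antisense feature had a median of 0.863 times the level of its gene. The gene adh1 averaged 5684 CPM, beside 5860 CPM for each of its antisense features. Of the 105 mug genes, 49 overlap another protein-coding gene in the RefSeq annotation (ASM294v3), 21 of them over at least 50% of their length and 13 wholly, and 74 overlap an annotated non-coding gene. The value of such a gene may include reads of its neighbour in an unknown part. Overlaps with another coding gene over at least 10% of a gene's length are given where a gene is described. Of the genes over 2-fold higher in mot2∆ than in wt, mug4, mug10, mug14, mug20, mug24, mug73, mug103, mug109, mug110, mug136, mug146 and mug186 overlap a non-coding gene on the other strand, and most other overlaps of this kind are not repeated.

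Sequences that bear on Mmi1 and on meiotic transcription are shown first, so that the values can be read beside them. In the lines that follow, the Mmi1 motif UNAAAC, with T for U as in the DNA letters, is in capitals in 90 bases of coding sequence of the 4 genes with the densest motifs among the mug genes that rose in mot2∆, and mug37 gives a dense example that did not pass there. The sequences are from RefSeq (ASM294v3), 5′ to 3′, on the coding strand.
mug9: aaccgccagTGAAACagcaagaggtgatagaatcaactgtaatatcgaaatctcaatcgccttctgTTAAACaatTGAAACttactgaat
mug45: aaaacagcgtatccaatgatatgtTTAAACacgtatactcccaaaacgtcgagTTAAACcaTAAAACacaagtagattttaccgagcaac
mug8: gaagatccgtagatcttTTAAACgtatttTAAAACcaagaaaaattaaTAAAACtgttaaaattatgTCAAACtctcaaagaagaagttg
mug10: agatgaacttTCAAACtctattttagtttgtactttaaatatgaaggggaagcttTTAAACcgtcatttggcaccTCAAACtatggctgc
mug37: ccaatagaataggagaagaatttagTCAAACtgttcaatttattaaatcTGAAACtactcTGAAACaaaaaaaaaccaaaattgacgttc
These windows span coding positions 323 to 412 of mug9, 227 to 316 of mug45, 1380 to 1469 of mug8, 849 to 938 of mug10 and 14 to 103 of mug37, counted from the first base of the start codon.

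The motif TNAAAC, searched on the coding strand only, occurred in 87 of 105 mug coding sequences (82.9%) and in 78.0% of 5113 protein-coding genes, at a median of 1.79 and 1.52 motifs per kb. It is short, so most coding sequences hold it. The mug gene with the highest density was mug9, with 8 motifs in 627 bases (12.8 per kb), and mug45 had 17 motifs, mug8 had 13, mug4 had 10 and mug10 had 5. Neither mug14 nor mug103 held the motif in its coding sequence, although both are among the 5 genes with the largest increases in mot2∆. Over the 105 genes, motif density and the log2 change in mot2∆ against wt had a Pearson r of 0.08 and a Spearman coefficient of -0.05, a description across genes that are not independent and that differ in length and base composition.

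**Figure D1:**
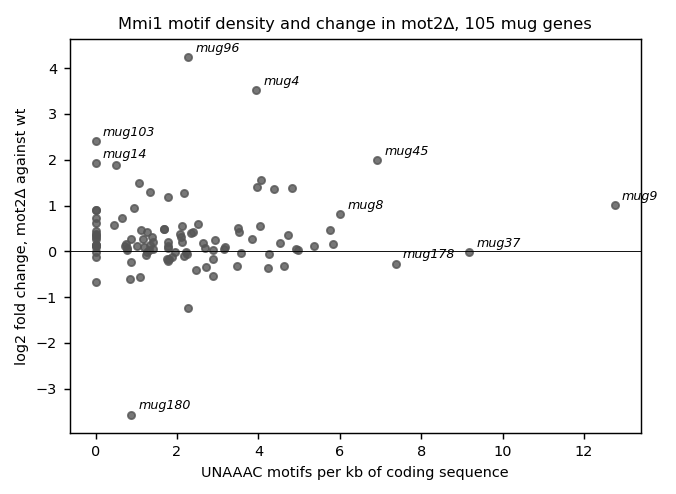
Each point is 1 of the 105 mug genes, with the number of UNAAAC motifs per kb of coding sequence on the x axis and the log2 fold change of mot2∆ against wt on the y axis. The densest gene, mug9, lies at 12.8 motifs and a change of 1.01, while mug103 and mug14 have no motif and changes of 2.40 and 1.92.

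The second set of sequences shows matches to GTAAACA, the core of the FLEX element that the meiotic forkhead factor Mei4 binds, in the window from 250 bases before to 50 bases after the annotated gene start. Matches are in capitals, in 29 bases around them, for the 3 genes with the largest increases in mot2∆ and for mug24, an RNA-binding protein gene that follows them among the genes with a match; TGTTTAC is the same core on the other strand.
mug96: ctcatactttaGTAAACAaatgaacagat
mug4: ggctctttcttTGTTTACatgtgctatac
mug103: tcgctaatgttTGTTTACattataagtaa
mug24: gaaaatagcaaTGTTTACatttgaaatgg
The match of mug96 covers bases 26 to 32 after the gene start, and those of mug4, mug103 and mug24 cover bases -225 to -219, -87 to -81 and -210 to -204 before it. On both strands, GTAAACA was found in 48 of 105 mug windows (45.7%) and in 16.5% of the windows of 5113 protein-coding genes. Within the mug genes it was in 8 of the 15 called higher in mot2∆ and in 40 of the other 90. TTCTTTGTT, the core of the TR box bound by the mating factor Ste11, was in 1.90% of mug windows and 1.99% of all windows, and TGACGT, the CRE bound by Atf1, was in 8.57% and 5.91%. A match is a description of the letters and not of a binding site.

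In wt, levels per length ran over a wide range, with a median of 14.5 CPM per kb of gene length. Without scaling by length, 12 mug genes had over 100 CPM and 3 had under 1 CPM. The highest per length were mug106 (454 ± 9.47 CPM per kb; SD, n = 2), mug108 (209 ± 27.6), mug134 (110 ± 6.0), mug37 (97.8 ± 4.18) and mug161 (94.7 ± 10.9), and the ranges of mug37 and mug161 overlapped. Of these, mug108 lies wholly within rga3 and mug161 overlaps oct1 over 92.8% of its length, so their levels cannot be assigned to mug transcripts alone, and mug37 overlaps sar1 over 44.5% and mug134 overlaps SPAC10F6.17C over 16.7%. The lowest were mug96 (0.0390 ± 0.0551 CPM per kb), mug155 (0.489 ± 0.0860), mug116 (0.640 ± 0.0675), mug135 (1.62 ± 0.268) and mug133 (1.63 ± 0.250), the last pair not differing beyond their spread, and mug155 overlaps SPAC27E2.12 over 51.2%.

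Many mug genes were higher without Mot2 alone. In mot2∆ against wt, 44 mug genes rose and 15 fell at an adjusted p under 0.05 (edgeR), where 29.1% of all features tested rose and 30.2% fell. With the 2-fold threshold, 15 mug genes were called higher, against 4.68% of all features, and 2 were called lower, against 3.88%. The median log2 change was 0.18 over the 105 mug genes and -0.01 over all features. Without the 21 genes that overlap another coding gene over at least 50% of their length, 41 of 84 rose and 11 fell, and the same numbers, 15 and 2, were called.

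**Figure D2:**
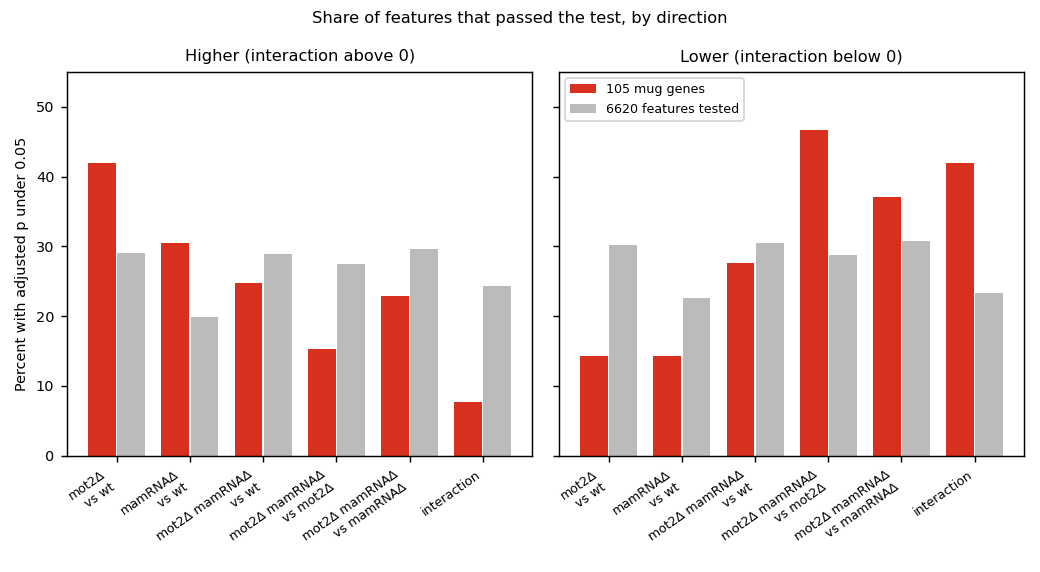
Bars give the percent of the 105 mug genes (red) and of the 6620 features tested (grey) with an adjusted p under 0.05 (edgeR) in each comparison, higher on the left and lower on the right, from 0. Mug genes exceed all features among increases in mot2∆ (44 of 105, against 29.1%), and among decreases of mot2∆ mamRNA∆ against mot2∆ (49 of 105, against 28.8%).

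The most extreme member was mug4, whose product has no named function. It had 4.69 and 4.62 CPM in mot2∆ mamRNA∆, 64.0 and 55.7 CPM in mot2∆, 3.10 and 3.19 CPM in mamRNA∆, and 6.15 and 4.41 CPM in wt. Only the mot2∆ libraries stood high, and those of mamRNA∆ lay below both wt libraries. The log2 change in mot2∆ against wt was 3.52 (SE 0.13; edgeR adjusted p = 1.03e-09), and in mot2∆ mamRNA∆ against mot2∆ it was -3.68 (SE 0.13; adjusted p = 4.53e-10). The double mutant still lay above mamRNA∆ (0.56, SE 0.17; adjusted p = 0.011).

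A gene near the detection limit, mug96, gave the largest fitted change. It had 2 and 2 counts in mot2∆ mamRNA∆, 16 and 12 counts in mot2∆, 1 and 1 counts in mamRNA∆, and 0 and 1 counts in wt. Against a floor of 3 counts per library, its mot2∆ level was at least 3.69-fold higher than in wt and, set against mot2∆ mamRNA∆, at least 4.85-fold higher in mot2∆. The other 3 genotypes were all at or under the floor and cannot be ordered.

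Another gene of unnamed function, mug103, had 1.06 and 1.09 CPM in mot2∆ mamRNA∆, 7.16 and 7.15 CPM in mot2∆, 1.19 and 1.33 CPM in mamRNA∆, and 1.41 and 1.30 CPM in wt. The mot2∆ libraries were the high ones and the other 6 lay close together. The change was 2.40 (SE 0.17; adjusted p = 2.15e-07) in mot2∆ against wt and -2.73 (SE 0.16; adjusted p = 8.21e-08) in mot2∆ mamRNA∆ against mot2∆. An annotated non-coding gene on the other strand spans all of mug103, and its part in these counts was not tested.

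The adducin gene mug14, whose product is annotated for actin organisation, had 54.8 and 38.8 CPM in mot2∆ mamRNA∆, 262 and 239 CPM in mot2∆, 43.4 and 48.2 CPM in mamRNA∆, and 68.1 and 64.3 CPM in wt. It stood high in mot2∆ alone, where it rose by 1.92 (SE 0.13; edgeR adjusted p = 1.42e-07) over wt. In mot2∆ mamRNA∆ it lay 2.42 below mot2∆ (log2 change -2.42, SE 0.13; adjusted p = 2.78e-08), and below both wt libraries. The RRM-type RNA-binding protein gene mug24 had 14.6 and 15.6 CPM in mot2∆ mamRNA∆, 84.4 and 56.1 CPM in mot2∆, 9.16 and 10.4 CPM in mamRNA∆, and 18.0 and 19.7 CPM in wt. Its mot2∆ libraries differed from each other by over 1.5 times, and both exceeded the other 6. The change was 1.89 (SE 0.16; adjusted p = 9.59e-07) in mot2∆ and -0.94 (SE 0.18; adjusted p = 0.0012) in mamRNA∆, each against wt.

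The gene mug10 had 1.82 and 0.924 CPM in mot2∆ mamRNA∆, 6.07 and 5.40 CPM in mot2∆, 2.04 and 2.20 CPM in mamRNA∆, and 2.35 and 2.10 CPM in wt. Again only mot2∆ stood high, by 1.37 (SE 0.22; edgeR adjusted p = 0.000195) over wt, and mot2∆ mamRNA∆ lay 2.05 below it on the log2 scale (-2.05, SE 0.22; adjusted p = 1.26e-05). The gene for a Rab GTPase-binding protein, mug109, behaved otherwise: 14.0 and 15.3 CPM in mot2∆ mamRNA∆, 25.1 and 26.3 CPM in mot2∆, 15.1 and 14.1 CPM in mamRNA∆, and 8.69 and 8.76 CPM in wt. All 3 mutants were above wt, by 0.75 (SE 0.10) in mot2∆ mamRNA∆, 1.56 (SE 0.10) in mot2∆ and 0.74 (SE 0.10) in mamRNA∆, with adjusted p of 5.71e-05, 1.09e-07 and 0.000159. The transporter gene mug73 lay 1.28 (SE 0.17; adjusted p = 4.81e-05) above wt in mot2∆ and 0.50 (SE 0.18; adjusted p = 0.0401) above wt in mamRNA∆, while mot2∆ mamRNA∆ did not pass against wt (0.36, SE 0.18; adjusted p = 0.105).

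The gene mug20, whose product is a component of the linear elements that serve meiotic recombination, had 2.27 and 2.94 CPM in mot2∆ mamRNA∆, 6.04 and 4.94 CPM in mot2∆, 1.81 and 2.06 CPM in mamRNA∆, and 1.83 and 2.35 CPM in wt. The mot2∆ libraries were the highest pair, and the change over wt was 1.37 (SE 0.20; edgeR adjusted p = 8.81e-05). The galactosyltransferase gene mug136 (otg2) had 6.75 and 6.04 CPM in mot2∆ mamRNA∆, 20.4 and 18.7 CPM in mot2∆, 7.15 and 7.80 CPM in mamRNA∆, and 7.84 and 9.15 CPM in wt, and lay 1.19 (SE 0.12; adjusted p = 4.51e-06) above wt in mot2∆. Its double mutant level was below both wt libraries, with a change of -0.42 (SE 0.13; adjusted p = 0.0153). Among genes of no named function, mug146 changed by 1.48 (SE 0.18) and mug110 by 1.29 (SE 0.11) in mot2∆ against wt, and both fell in mot2∆ mamRNA∆ against mot2∆ (-1.49, SE 0.17, and -1.14, SE 0.10).

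The gene with the densest motifs, mug9, had 1.27 and 1.32 CPM in mot2∆ mamRNA∆, 3.58 and 3.87 CPM in mot2∆, 0.758 and 0.989 CPM in mamRNA∆, and 2.02 and 1.70 CPM in wt, and the 4 pairs did not overlap. The change was 1.01 (SE 0.18; edgeR adjusted p = 0.000507) in mot2∆ and -1.06 (SE 0.23; adjusted p = 0.00348) in mamRNA∆, each against wt. Likewise mug8, with 13 motifs, had 42.0 and 38.4 CPM in mot2∆ mamRNA∆, 85.6 and 90.2 CPM in mot2∆, 31.4 and 31.7 CPM in mamRNA∆, and 57.5 and 43.5 CPM in wt. It stood highest in mot2∆ (0.80, SE 0.11; adjusted p = 3.95e-05) and lowest in mamRNA∆ (-0.67, SE 0.11; adjusted p = 0.000445), each set against wt. Genes with few motifs also rose in mot2∆ and fell in mamRNA∆. Among them were mug14, with 0 motifs (-0.53 in mamRNA∆), and mug24 and mug146, with 1 motif each (-0.94 and -0.72).

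**Figure D3:**
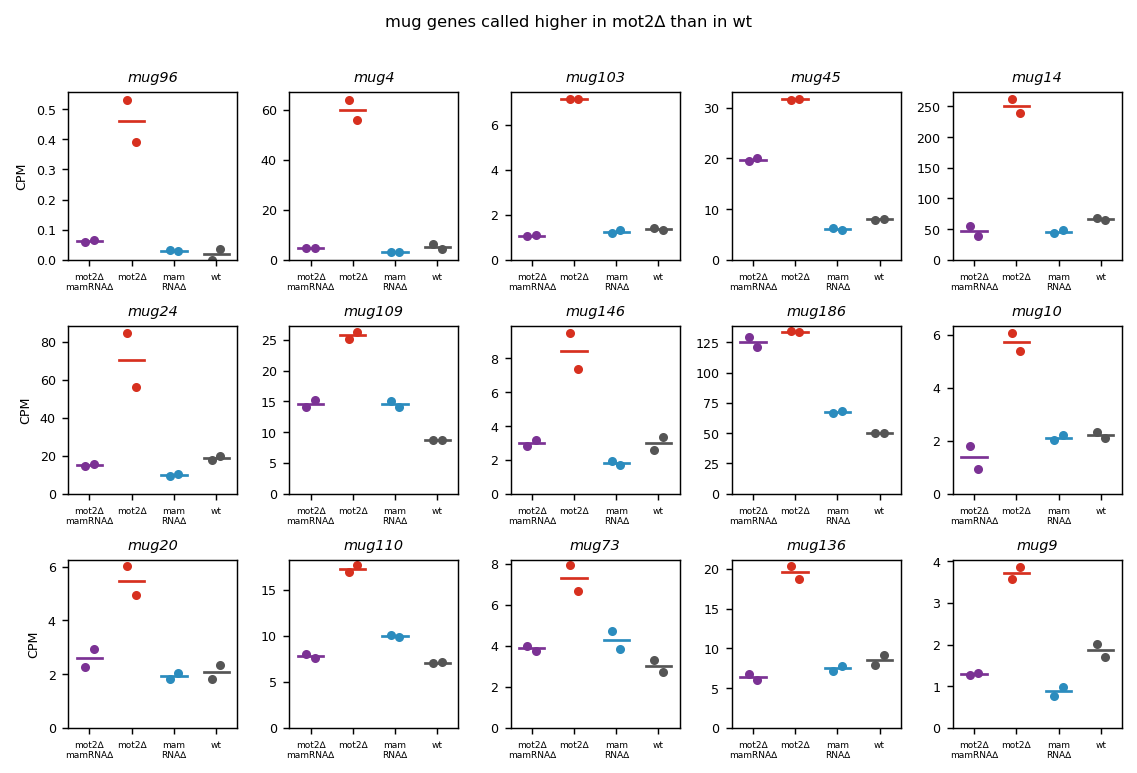
Each panel shows 1 of the 15 mug genes called higher in mot2∆ than in wt, in order of fold change, with CPM on a linear y axis from 0. Points are single libraries, bars are the mean of the 2 libraries of a genotype. In all 15 panels the mot2∆ pair is the highest, and in those of mug45 and mug186 the mot2∆ mamRNA∆ pair also lies over 2-fold above wt.

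Markers of mating cells also rose in mot2∆, and h90 cells can mate with each other. The 10 mating and pheromone-response genes examined (ste11, ste6, mfm1, mfm2, mfm3, map2, map3, mam1, mam2, fus1) had summed levels of 760 to 785 CPM in mot2∆ mamRNA∆, 2382 to 2460 CPM in mot2∆, 682 to 741 CPM in mamRNA∆ and 798 to 933 CPM in wt. All 10 rose in mot2∆ against wt, where 29.1% of all features did. All 10 were lower in mot2∆ mamRNA∆ than in mot2∆, against 28.8% of all features, and in mamRNA∆ 7 fell against wt, against 22.7%. The rise and the fall are measured on the same mot2∆ libraries and are not separate observations. In mot2∆ mamRNA∆ against mamRNA∆, 7 of the 10 rose and 1 fell, against 29.6% and 30.8% of all features. In mot2∆ mamRNA∆ against wt, 3 rose and 2 fell, against 28.9% and 30.5%. The zygote gene mei3 had 0.938 and 1.16 CPM in mot2∆ mamRNA∆, 6.70 and 5.33 CPM in mot2∆, 0.725 and 0.763 CPM in mamRNA∆, and 0.704 and 0.904 CPM in wt. Of 3 spore genes, isp3, which encodes a spore coat protein, had 21.2 and 21.8 CPM in mot2∆ mamRNA∆, 929 and 910 CPM in mot2∆, 16.7 and 16.9 CPM in mamRNA∆, and 12.3 and 11.6 CPM in wt, while spo15 rose in mot2∆ against wt and spo3 fell. None of these markers was at 0 in any library. In bulk RNA, more cells of one kind and more RNA per cell cannot be told apart, and the part of mating or sporulating cells in the mug gene values was not tested.

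Among 22 other genes of meiosis and sporulation, 16 rose in mot2∆ against wt, where 29.1% of all features did, and the other 6 did not pass. In mot2∆ mamRNA∆ against mot2∆, 16 fell and 2 rose, against 28.8% and 27.4% of all features. Both comparisons use the same mot2∆ libraries. The list holds mei2 itself, which had 458 and 409 CPM in mot2∆ mamRNA∆, 1091 and 909 CPM in mot2∆, 352 and 361 CPM in mamRNA∆, and 548 and 409 CPM in wt. The target gene spo5, which encodes a meiotic RNA-binding protein whose transcript Mmi1 removes, had 2.42 and 2.08 CPM in mot2∆ mamRNA∆, 77.0 and 69.6 CPM in mot2∆, 2.83 and 2.17 CPM in mamRNA∆, and 2.07 and 2.06 CPM in wt. Its change in mot2∆ against wt, 5.15, was the largest of the 22. Also Mmi1 targets, mei4, mcp5 and ssm4 changed there by 1.10, 0.78 and 0.17, and ssm4 did not pass (edgeR adjusted p = 0.293). In mot2∆ mamRNA∆ against wt these 3 fell, by -1.21, -2.60 and -1.29. In that comparison spo5 did not pass (0.13, adjusted p = 0.589). Of the whole list of 22, 7 rose and 8 fell there, against 28.9% and 30.5% of all features. Among those that rose was crs1, which stayed 2.01 above wt in the double mutant (edgeR adjusted p = 6.06e-06). Loss of Mot2 alone raised crs1 by 2.65, and loss of mamRNA alone raised it by 1.21. The list of 22 had a median change of 0.76 in mot2∆, against 0.18 for the mug genes.

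Not every increase in mot2∆ was lost with mamRNA. The gene mug45, of no named function and with 17 motifs, had 19.4 and 20.1 CPM in mot2∆ mamRNA∆, 31.5 and 31.8 CPM in mot2∆, 6.29 and 5.79 CPM in mamRNA∆, and 7.84 and 8.14 CPM in wt. Both strains without Mot2 stood high, and the change was 1.30 (SE 0.10; edgeR adjusted p = 5.18e-07) in mot2∆ mamRNA∆ and 1.98 (SE 0.10; adjusted p = 8.87e-09) in mot2∆, each against wt. Its neighbour nce103, which encodes a carbonic anhydrase and overlaps 2.7% of mug45, changed by 1.48 and 1.59 in the same comparisons. The sorting nexin gene mug186 (snx41) had 130 and 121 CPM in mot2∆ mamRNA∆, 134 and 133 CPM in mot2∆, 66.6 and 68.5 CPM in mamRNA∆, and 50.2 and 50.2 CPM in wt. Here mot2∆ mamRNA∆ and mot2∆ did not differ beyond their spread (-0.09, SE 0.06; adjusted p = 0.227). The increases over wt were 1.32 (SE 0.07; adjusted p = 2.4e-08) in mot2∆ mamRNA∆ and 1.41 (SE 0.07; adjusted p = 6.81e-09) in mot2∆. Smaller increases of this kind were seen for mug150, which overlaps kap113 over 73.9% of its length, with 0.71 and 0.61 in the double mutant and mot2∆ against wt, for mug115, with 0.48 and 0.60, and for mug125, with 0.67 and 0.50. Their coding neighbours moved the same way in these comparisons: kap113 by 1.11 and 1.04, SPAC56F8.13, which overlaps 24% of mug115, by 0.45 and 0.58, and sle1, which overlaps 17.9% of mug125, by 0.54 and 0.66. The part of the neighbours' reads in these mug values was not tested.

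The effect of losing Mot2 could be compared with and without mamRNA in libraries that are not shared: mot2∆ against wt, and mot2∆ mamRNA∆ against mamRNA∆. In the comparison of mot2∆ mamRNA∆ with mamRNA∆, 24 mug genes rose and 39 fell, where 29.6% and 30.8% of all features did, and 2 were called higher and 5 lower, against 4.15% and 5.71%. With library sizes taken as total counts, 16 rose and 42 fell. Without mamRNA∆ replicate 2, 15 rose and 25 fell, and without mot2∆ mamRNA∆ replicate 2, 24 fell. Of the 44 genes that rose in mot2∆ against wt, 15 also rose in mot2∆ mamRNA∆ against mamRNA∆, which is 34.1% of the first list and 62.5% of the second, and 10 fell there. Of the 15 that fell in mot2∆ against wt, 8 fell in both (53.3% and 20.5%). Across the 105 genes the changes had a Pearson r of 0.53 and a Spearman coefficient of 0.34, a description over genes that are not independent.

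**Figure D4:**
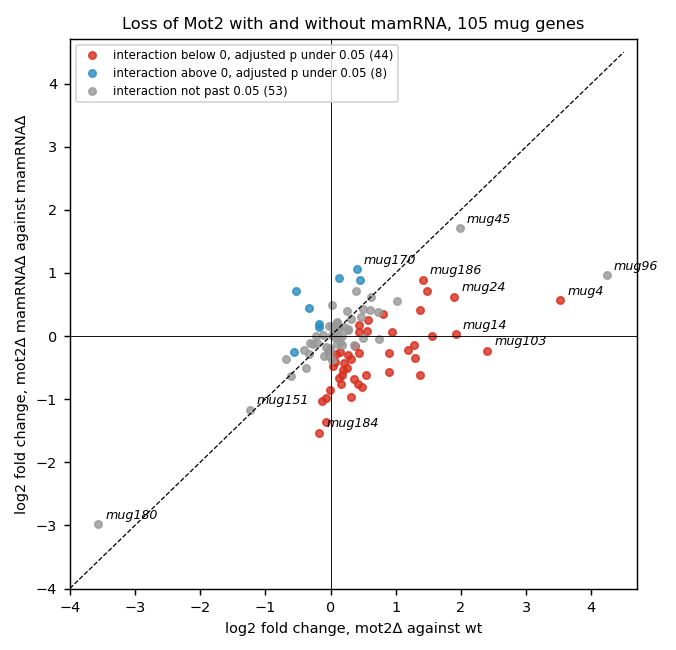
Each point is a mug gene, with its log2 fold change in mot2∆ against wt on the x axis and in mot2∆ mamRNA∆ against mamRNA∆ on the y axis. On the dashed line both changes are equal. The 44 red genes passed the interaction test below 0 and the 8 blue genes above 0, while mug45, mug180 and mug151 lie near the line.

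The difference between these changes is the interaction, and a value below 0 means that loss of Mot2 changed a gene less, or more negatively, when mamRNA was also missing. At both loci the double mutant carries other marker cassettes than the single mutants. Effects of strain or cassette therefore cannot be told apart from those of the second deletion, here or in comparisons with a single mutant. By the edgeR test of the interaction itself, 44 mug genes lay below 0 and 8 above, where 23.3% and 24.4% of all features did. The number above 0 was 13 without wt replicate 2, 5 without either replicate of mot2∆ mamRNA∆ and 4 with total counts as library sizes. With the 2-fold threshold, 18 were called below 0, against 6.69% of all features, and 1 above, against 4.46%. The median interaction was -0.27 over the mug genes and 0.00 over all features. Among the 44 genes below 0, the median change was 0.43 in mot2∆ against wt and -0.32 in mot2∆ mamRNA∆ against mamRNA∆. These genes were chosen by the difference between those changes, so the order of the medians follows from the choice. Among genes that passed, the 6 lowest values were those of mug4 (-2.96, SE 0.22), mug103 (-2.63, SE 0.28), mug10 (-1.99, SE 0.34), mug14 (-1.89, SE 0.18), mug110 (-1.64, SE 0.15) and mug109 (-1.55, SE 0.14), with adjusted p from 6.95e-07 to 0.000486. Without the 21 overlapping genes, 40 of 84 lay below 0 and 5 above.

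Seen as the effect of losing mamRNA in cells without Mot2, 49 mug genes fell and 16 rose in mot2∆ mamRNA∆ against mot2∆, where 28.8% and 27.4% of all features did, and 16 were called lower and 1 higher, against 4.59% and 2.15%. With total counts as library sizes, 55 fell and 8 rose, and 10 rose without mot2∆ mamRNA∆ replicate 1. The called decreases included mug4, mug96, mug103, mug14, mug24, mug10, mug136, mug9, mug146, mug110, mug8 and mug20, which have been described. The rest were mug184, mug147, mug143 and mug1, whose changes in mot2∆ against wt were -0.18, 0.55, 0.32 and 0.36.

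The gene mug184 was low only when both were missing. It had 6.23 and 6.01 CPM in mot2∆ mamRNA∆, 15.4 and 16.6 CPM in mot2∆, 17.8 and 17.7 CPM in mamRNA∆, and 16.6 and 19.4 CPM in wt. The 2 libraries of the double mutant stood apart from the other 6, with a change of -1.56 (SE 0.11; edgeR adjusted p = 4.36e-07) against wt, while neither single mutant passed against wt (-0.18, adjusted p = 0.165 in mot2∆, and -0.03, adjusted p = 0.85 in mamRNA∆). Similarly mug35, of no named function, had 24.5 and 22.2 CPM in mot2∆ mamRNA∆, 49.0 and 43.3 CPM in mot2∆, 58.9 and 61.6 CPM in mamRNA∆, and 49.2 and 47.2 CPM in wt. It fell by 1.04 (SE 0.08; adjusted p = 8.23e-07) in the double mutant and rose by 0.32 (SE 0.08; adjusted p = 0.00607) in mamRNA∆, each against wt. The interaction passed for both genes (-1.36, SE 0.15, for mug184, and -1.31, SE 0.11, for mug35).

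Further genes were lower in the double mutant than in each of the other genotypes. The gene mug147 had 61.4 and 51.2 CPM in mot2∆ mamRNA∆, 142 and 108 CPM in mot2∆, 81.4 and 92.1 CPM in mamRNA∆, and 79.7 and 90.9 CPM in wt. Its double mutant pair lay below all other libraries and its mot2∆ pair above them. The oxidation resistance gene mug63 (oxr1) had 27.6 and 27.1 CPM in mot2∆ mamRNA∆, 52.7 and 53.8 CPM in mot2∆, 42.5 and 49.7 CPM in mamRNA∆, and 41.2 and 38.1 CPM in wt, with a change of -0.53 (SE 0.08; edgeR adjusted p = 0.000171) in the double mutant against wt. The mannanase gene mug191, the forespore membrane kinase gene mug27 (slk1) and the histone chaperone gene mug183 (rtt106) fell by 0.53, 0.56 and 0.45 in the double mutant against wt, and none of the 3 passed in mot2∆ against wt. Decreases were also read for mug143 (-0.80, SE 0.10) and mug108 (-0.83, SE 0.18), but mug143 lies wholly within dbs2, which changed by -0.18, and mug108 within rga3, which changed by -0.63.

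A smaller group was highest in the double mutant. The arrestin-family membrane adaptor gene mug170 had 57.9 and 56.3 CPM in mot2∆ mamRNA∆, 29.2 and 27.2 CPM in mot2∆, 29.1 and 25.7 CPM in mamRNA∆, and 21.9 and 20.9 CPM in wt. The single mutants overlapped each other and lay above wt by 0.40 (SE 0.08; edgeR adjusted p = 0.0013) in mot2∆ and 0.36 (SE 0.08; adjusted p = 0.00473) in mamRNA∆, and the double mutant lay 1.42 (SE 0.08; adjusted p = 6.87e-08) above wt. The interaction was 0.66 (SE 0.11; adjusted p = 0.000534). The gene mug94, of no named function, had 7.90 and 6.90 CPM in mot2∆ mamRNA∆, 5.21 and 5.10 CPM in mot2∆, 3.95 and 3.84 CPM in mamRNA∆, and 4.32 and 5.03 CPM in wt, and its interaction was 0.79 (SE 0.20; adjusted p = 0.00625). Increases in the double mutant were also read for mug130 (0.97, SE 0.19, against wt) and mug128 (0.39, SE 0.08), which lie wholly within another coding gene, SPAC8F11.04 and grc3. The other genes with an interaction above 0 were mug165 (0.42, SE 0.12; adjusted p = 0.0146), which did not pass in 5 of the 8 fits that left out 1 library nor with total counts as library sizes, mug129, and mug57 and mug97, which overlap each other.

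The gene with the highest wt level per length, mug106, had the only called interaction above 0. It had 346 and 364 CPM in mot2∆ mamRNA∆, 248 and 248 CPM in mot2∆, 232 and 202 CPM in mamRNA∆, and 365 and 354 CPM in wt. Each single mutant lay below wt, with a log2 change of -0.53 (SE 0.08; edgeR adjusted p = 9.82e-05) in mot2∆ and -0.73 (SE 0.08; adjusted p = 2.13e-05) in mamRNA∆, and the double mutant overlapped wt (-0.02, SE 0.08; adjusted p = 0.861). The interaction was 1.24 (SE 0.11; adjusted p = 3.05e-06). On the same strand, mug106 overlaps gpm1, the gene of a glycolytic phosphoglycerate mutase, over 3.8% of its length, and gpm1 changed by -0.51 in mot2∆ with an interaction of 1.13. The part of gpm1 transcripts in the mug106 counts was not tested.

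Loss of mamRNA alone changed 3 mug genes by over 2-fold. In mamRNA∆ against wt, 32 mug genes rose and 15 fell, where 19.9% and 22.7% of all features did, and 1 was called higher and 2 lower, against 2.52% and 1.47%. The number that rose was 21 without wt replicate 2, 17 without mamRNA∆ replicate 2 and 21 by DESeq2, and the number that fell was 9 without mamRNA∆ replicate 2. The gene mug121 had 23.8 and 24.8 CPM in mot2∆ mamRNA∆, 22.7 and 21.7 CPM in mot2∆, 49.5 and 49.7 CPM in mamRNA∆, and 23.2 and 25.2 CPM in wt. It was high in mamRNA∆ alone, by 1.03 (SE 0.07; edgeR adjusted p = 7.33e-07) over wt, and in the double mutant the value was back among those of wt (0.00, SE 0.08; adjusted p = 0.971). The gene mug2 had 39.4 and 38.3 CPM in mot2∆ mamRNA∆, 36.5 and 47.7 CPM in mot2∆, 76.9 and 76.3 CPM in mamRNA∆, and 44.7 and 43.4 CPM in wt, and rose by 0.80 (SE 0.10; adjusted p = 6.51e-05) in mamRNA∆. Both genes also had an interaction below 0 (-0.90, SE 0.11, and -0.92, SE 0.14). On the other strand, the non-coding gene prl5 overlaps 38.5% of mug121 and changed by 1.06 in mamRNA∆ against wt with an interaction of -0.91, nearly the values of mug121. A further non-coding gene, SPNCRNA.646, covers 47.4% of mug121 on its own strand and changed by 0.38, and SPNCRNA.1351 covers 61.1% of mug2 on the other strand.

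Other increases in mamRNA∆ were seen for genes that also rose in mot2∆. They included mug124 (0.74 in mamRNA∆ and 0.90 in mot2∆, each against wt), the tricalbin gene mug190 (tcb2), which tethers the endoplasmic reticulum to the plasma membrane (0.62 and 0.49), and the spore wall assembly gene mug56 (0.57 in mamRNA∆). The increase of mug114 (0.61, SE 0.17; edgeR adjusted p = 0.0117) rested on its wt libraries, which had 167 and 101 CPM, and was 0.29 and did not pass without wt replicate 2. The gene mug100 rose by 0.53 (SE 0.10; adjusted p = 0.00112) in mamRNA∆ and fell by 0.37 (SE 0.10; adjusted p = 0.00784) in mot2∆, the decrease not passing without wt replicate 2, without mot2∆ replicate 1 or with total counts as library sizes. Among the decreases, mug15 had 3.24 and 4.09 CPM in mot2∆ mamRNA∆, 4.87 and 5.98 CPM in mot2∆, 2.77 and 2.43 CPM in mamRNA∆, and 5.59 and 5.10 CPM in wt. Its mamRNA∆ pair was the lowest (-1.04, SE 0.18; adjusted p = 0.000726), and mot2∆ overlapped wt. Without wt replicate 1, both mug9 (-0.93) and mug15 (-0.96) fell short of the 2-fold threshold and still passed the test. Values of mug1 (jnm1), a dynactin subunit gene, were -0.57 (SE 0.18; adjusted p = 0.0199) in mamRNA∆ and -0.72 (SE 0.18; adjusted p = 0.00401) in the double mutant, each against wt, and its mamRNA∆ value did not pass without wt replicate 2 (-0.39), without mamRNA∆ replicate 2 (-0.32) or with total counts as library sizes (-0.55).

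The effect of mamRNA loss was likewise set side by side in unshared libraries. Of the 32 mug genes that rose in mamRNA∆ against wt, 7 rose in mot2∆ mamRNA∆ against mot2∆ (21.9% of the first list and 43.8% of the second) and 12 fell there, where 27.4% and 28.8% of all features rose and fell. Of the 15 that fell in mamRNA∆ against wt, 10 also fell in mot2∆ mamRNA∆ against mot2∆ (66.7% and 20.4%): mug1, mug4, mug8, mug9, mug14, mug15, mug24, mug45, mug146 and mug157. Of these 10, mug4, mug8, mug9, mug14, mug24, mug45 and mug146 rose in mot2∆ against wt, where 29.1% of all features did. That comparison reuses the mot2∆ and wt libraries by which the 10 were chosen, so it is not a separate observation. Across the 105 genes Pearson's r was 0.32 and Spearman's coefficient 0.23.

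Against wt, increases and decreases in the double mutant were about equal in number. In mot2∆ mamRNA∆ against wt, 26 rose and 29 fell, where 28.9% and 30.5% of all features did, 3 were called higher (mug170, mug186, mug45), against 3.04%, and 4 lower (mug180, mug184, mug151, mug35), against 5.76%. The median change was 0.00 over the mug genes and -0.01 over all features. Leaving out replicate 2 of mot2∆ mamRNA∆ took the number that fell to 19.

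Decreases that followed the loss of Mot2 whether or not mamRNA was present were led by mug180 (say1), which encodes a sterol deacetylase. It had 1.48 and 1.02 CPM in mot2∆ mamRNA∆, 1.26 and 0.878 CPM in mot2∆, 8.50 and 11.4 CPM in mamRNA∆, and 12.5 and 12.8 CPM in wt. Both strains without Mot2 were far below the other strains, with a log2 change of -3.33 (SE 0.21; edgeR adjusted p = 1.57e-07) in mot2∆ mamRNA∆ against wt and -3.57 (SE 0.22; adjusted p = 8.46e-08) in mot2∆ against wt. The gene mug151, annotated as a transcriptional regulator of the HCNGP family, had 3.09 and 2.44 CPM in mot2∆ mamRNA∆, 3.65 and 3.19 CPM in mot2∆, 6.72 and 5.76 CPM in mamRNA∆, and 7.89 and 8.25 CPM in wt. Its change was -1.54 (SE 0.16; adjusted p = 6.29e-06) in the double mutant and -1.24 (SE 0.16; adjusted p = 3.02e-05) in mot2∆, each against wt. Smaller decreases in mot2∆ were those of mug84, a glycosylphosphatidylinositol anchor synthesis gene that overlaps SPAC22A12.14c over 17% of its length (-0.68), mug89, for a subunit of a phospholipid flippase (-0.61), mug129 (-0.56) and mug176, for a BRCT domain protein (-0.40). These 4 fell in the double mutant against wt as well (-0.74, -0.81, -0.43 and -0.37).

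**Figure D5:**
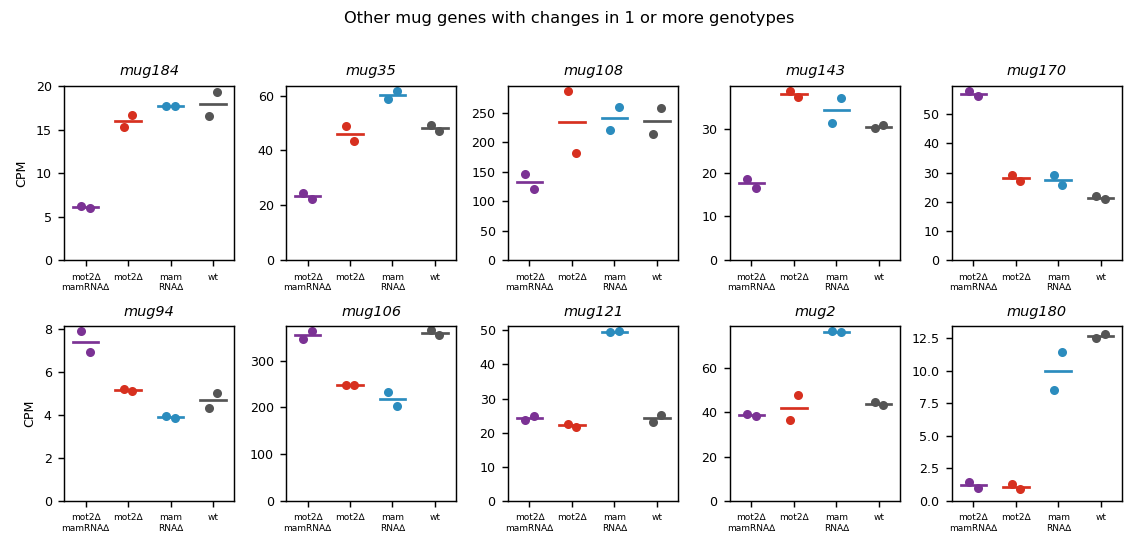
CPM of 10 other mug genes on linear y axes from 0, with points for single libraries and bars for the mean of the 2 libraries of a genotype. mug184, mug35, mug108 and mug143 are lowest in mot2∆ mamRNA∆, mug170 and mug94 are highest there, mug106 is low in both single mutants, mug121 and mug2 are high in mamRNA∆ alone, and mug180 is low in both strains without Mot2.

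The genes were grouped by RefSeq product, without regard to values. The group classed as having no named function (61 of 105) also holds mug20 and mug33, for which roles are given elsewhere in this text. It gave 8 of the 15 called increases in mot2∆ against wt, mug20 among them, with 27 rising and 6 falling. Over all features, 29.1% rose and 30.2% fell in that comparison, and 4.68% were called higher. Of 9 membrane traffic or transport genes, 4 rose and 1 fell, and 3 were called higher (mug109, mug186, mug73). Of 13 genes for enzymes or their regulators, 6 rose and 2 fell in mot2∆ against wt, while in mot2∆ mamRNA∆ against wt 1 rose (mug134, the phosphatase inhibitor Igo1) and 9 fell, against 28.9% and 30.5% of all features, and 9 had an interaction below 0, against 23.3%. Of 7 genes for membrane shaping, the cytoskeleton or the wall, 3 rose and 1 fell in mot2∆, and 4 had an interaction below 0. Of 9 genes for RNA, DNA or chromatin proteins, 3 rose (mug24, the coilin gene mug174 and the helicase gene mug81) and 4 fell (mug151, mug176, the splicing factor gene mug161 and the mitochondrial ribosomal protein gene mug178). The 4 genes grouped under ubiquitin, protease or chaperone functions changed by between -0.34 and 0.26 in mot2∆ against wt. There mug105, a ubiquitin-fold modifier protease gene, fell and mug185 (epr1) rose. Neither the ubiquitin ligase gene mug30 nor the APC coactivator gene mug55 (fzr3) passed. Of these, mug55 lies wholly within mug163, and mug30 and mug185 overlap stc1 and rsa3 over 25.4% and 11.3% of their length. The groups are small and were not compared by a test.

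Several genes with known roles, some of them in spore formation, changed by less than 2-fold in mot2∆ against wt. The RNA-binding protein gene mug28 did not pass in mot2∆ against wt (0.05, SE 0.07; edgeR adjusted p = 0.551), and rose in mamRNA∆ (0.45, SE 0.07; adjusted p = 0.000263) and in the double mutant (0.55, SE 0.07; adjusted p = 1.96e-05), but it lies wholly within the annotated span of mrp17, a mitochondrial ribosomal protein gene. The spore wall genes mug56 and mug65 and the BAR-domain genes mug137 and mug64 differed among themselves: mug56 rose in mot2∆, mug64 fell, and mug65 and mug137, which lies wholly within erm2, did not pass there. The gene mug33, linked to exocytosis, rose in mot2∆ (0.26) and fell in mamRNA∆ (-0.33). Finally, 10 members passed in none of the 6 comparisons: mug5, mug16, mug42, mug58, mug74, mug93, mug117, mug132, mug155 and mug177. Their estimates lay between -0.38 and 0.48, while mug58 and mug177 overlap each other and mug117 lies wholly within cca2.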

How the data were processed

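Total RNA of 8 libraries (4 genotypes, 2 each) was read as paired reads of 75 nt. The authors removed adapters with cutadapt 1.15 after bcl2fastq 2.18.12, aligned reads with Bowtie2 and counted them per feature with MulticovBed, and deposited raw counts for 6973 features. Genome build, annotation and use of strand are not given in the sources used here, so no coordinates are printed. The tables used hold no fold changes or p-values of the authors.

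Counts were analysed with edgeR 4.0.16 and limma 3.58.1 in R 4.3.3: filterByExpr (minimum count 10, minimum total 15), TMM, 1 coefficient per genotype over all 8 libraries, and the two-sided quasi-likelihood F test with Benjamini-Hochberg adjustment over 6620 features. The standard error (SE) was the log2 change divided by the square root of F. The interaction was the change of mot2∆ mamRNA∆ over mamRNA∆ minus that of mot2∆ over wt. The fit was tested on simulated data. The floor for a fold change was 3 counts per library, 0.0847 to 0.141 CPM by library, and covers counting error only, since reads carry no molecular identifiers.

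Members, lists, motifs and named genes were chosen with earlier results of these data known. Named were, for each of 5 comparisons, the 8 largest increases and 8 largest decreases that passed with libraries not overlapping, the 6 largest interactions each way, genes with a known role, the 5 highest and 5 lowest in wt, and genes at the floor. Matching to RefSeq (ASM294v3) gave 91 genes by symbol and 14 by synonym. The mug79, mug145 and mug158 genes were not analysed here.

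Alternatives were RLE size factors, total counts, no filter, at least 10 counts in every library, antisense features left out, only the genotypes compared, a replicate block, DESeq2 1.42.0, no fold threshold and leaving out each library. After the data had been seen, a block that crosses the mamRNA∆ numbers was also tried.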

Additional observations from a re-analysis of the deposited data

Results flagged for a closer look

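For these mug genes the effect of losing Mot2 differed between cells with and without mamRNA by edgeR's test of the interaction, adjusted over all 6620 features. The marker cassettes also differ between the double mutant and the single mutants, and their effect cannot be told apart from it. In all, 44 genes lay below 0 and 8 above, where 23.3% and 24.4% of all features did. Among the genes that passed, the largest values below 0, on the log2 scale, were -2.96 for mug4, -2.63 for mug103, -1.99 for mug10, -1.89 for mug14, -1.64 for mug110 and -1.55 for mug109. The largest above 0 were 1.24 for mug106, 0.79 for mug94, 0.76 for mug128, 0.66 for mug170, 0.42 for mug165 and 0.36 for mug97. The gene mug128 lies wholly within grc3, which had an interaction of 0.66, and mug97 wholly within mug57. On the same strand as mug106, gpm1 overlaps 3.8% of it and had an interaction of 1.13. The value of mug165 did not pass with total counts as library sizes.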

How the results depend on the processing

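Of the 12 counts of called mug genes, those of increases in mot2∆ (15 to 17 on leaving out 1 library), decreases in mot2∆ mamRNA∆ against mot2∆ (14 to 19) and interactions below 0 (16 to 21) stayed within 1.5 times under every alternative that kept the 2-fold threshold. Leaving out 1 library gave 0 to 2 called decreases in mamRNA∆ against wt, 0 to 1 called increases in mot2∆ mamRNA∆ against mot2∆ and 1 to 3 against mamRNA∆. With total counts as library sizes, the counts of increases in mot2∆ mamRNA∆ were 0 against mot2∆ and 1 against mamRNA∆, and with antisense features left out that against mot2∆ was 0, since mug170 lay at the threshold. Without a fold threshold, the counts higher and lower were 44 and 15 (mot2∆ against wt), 32 and 15 (mamRNA∆ against wt), 26 and 29 (mot2∆ mamRNA∆ against wt), 16 and 49 (against mot2∆), 24 and 39 (against mamRNA∆), and 8 and 44 (interaction). Total counts shifted the median of all features to -0.11 for mot2∆ mamRNA∆ against mamRNA∆ and for the interaction, where 45 mug genes then lay below 0 and 4 above. Of 92 values named by rule, 11 lost the test under 1 or more of 17 alternatives (26 of 1534 values) and none changed sign.

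The replicate numbers gave no sign of paired libraries: deviations of same-numbered libraries correlated with r from -0.108 to 0.163 across features in 6 pairs of genotypes. A replicate block left every count of called genes as it was (15 and 2 in mot2∆ against wt, 18 and 1 for the interaction) and all 92 named values past the test. With the mamRNA∆ numbers crossed in the block, 16 were called lower and 1 higher in mot2∆ mamRNA∆ against mot2∆.

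Depth limits mug96, with 0 to 16 counts per library, and mug155, with 6 to 18.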

Other observations

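In 9 cases the 2 libraries of a genotype differed by over 1.5 times in CPM for a mug gene: mug108, mug86 and mug24 in mot2∆, mug155 and mug10 in mot2∆ mamRNA∆, mug130 in mamRNA∆, and mug96, mug114 and mug93 in wt. For mug86, which encodes an acetate transporter, the mot2∆ libraries had 57.2 and 37.4 CPM, and for mug108 they had 288 and 182 CPM.

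Features named as antisense to 17 mug genes had a median of 0.929 times the level of the gene, and 5 of the 17 lay within 10% of it. The antisense features of mug27, mug74, mug93 and mug95 exceeded their genes, by ratios of 1.40, 1.34, 1.51 and 1.39 of the mean over all libraries. Those of mug182 and mug68 exceeded theirs slightly, by ratios of 1.06 and 1.02, while that of mug106 stood at 3.52 CPM beside 295 CPM for mug106.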
